A study of Mus musculus with 96 samples.

Results

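The immediate early genes examined here were 10 genes chosen by symbol, Fos, Fosb, Jun, Junb, Atf3, Egr1, Nr4a1, Ier2, Dusp1 and Btg2, and all 10 were found among the 41575 gene symbols with counts. Their RNA was measured in 16 tissues of 3-week-old mice of 2 genotypes, wild-type (WT) and Scx-/-, with 3 libraries for each tissue and genotype, or 96 libraries in 32 groups. Scx (scleraxis) encodes a transcription factor of tendon and other connective tissue progenitors. The mutant mice are labelled Scx-/-, and which part of the gene the allele removes is not given in the sources used here. The tissues were brain (cortex and hippocampus), gut (stomach, intestine and rectum), heart and vascular, lung, liver, kidney, bladder, spleen, adipose, and the skeletal tissues muscle, bone and cartilage, taken as whole organs at necropsy and frozen in liquid nitrogen, with no treatment. RNA was read by MuSeq, a multiplexed RNA-sequencing method that reads mainly the 3′ ends of polyadenylated RNA. The labels do not say which libraries came from the same mouse, nor the sex of the mice, so p-values measure the spread between libraries. Levels are given as CPM (counts per 1000000 gene counts of the library), and fold changes as Scx-/- over WT.

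Immediate early genes are transcribed within minutes of a stimulus from factors that are already present in the cell, such as serum response factor with its partners and the cyclic AMP response element binding protein, without the need for new protein. Their RNA is short-lived, so their level follows recent signals: growth factors, calcium entry in an active neuron, stretch, injury and also the handling of a tissue between death and freezing. Fos, Fosb, Jun and Junb encode subunits of the AP-1 transcription factor, and Atf3 a stress-induced partner of the Jun proteins. Egr1 and Nr4a1 encode a zinc finger factor and an orphan nuclear receptor, and Ier2 a small nuclear protein of the same early wave. Dusp1, a phosphatase that switches off MAP kinases, and Btg2, an antiproliferative gene, limit the response.

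The libraries held 11244 to 1658192 counts (median 251640), and 8 of them under 50000, so that a single count weighed 88.9 CPM in the shallowest library, WT heart replicate 2. The 10 genes together had 21945 counts, 0.0653% of all. In 7 of the 16 tissues every library of one genotype was deeper than every library of the other, with Scx-/- deeper in adipose, hippocampus and liver and WT deeper in bladder, intestine, kidney and vascular samples. Marker lists had their highest summed level in the tissue of the same name for 13 of the 16 tissues. The exceptions were hippocampus, whose list was higher in cortex, and the adipose and vascular samples. The adipose-labelled libraries held 23.7% to 32.5% of their counts in 5 pancreatic acinar genes and 0.000599% to 0.0124% in 5 fat genes, with 1 of these fat genes at 0 in all 6, and the vascular libraries held 0.366% to 1.32% in 5 brown fat genes, so both are named by their labels only. The cartilage libraries held 9.64% to 12.2% of their counts in 5 skeletal muscle genes, and the bone libraries 1.92% to 7.92%. The part of this muscle content in the cartilage and bone values below was not tested. Scx itself had 80 counts in 12 of the 48 WT libraries and 9 counts in 1 of the 48 Scx-/- libraries, the library labelled Scx-/- cartilage replicate 1. The library of Scx-/- rectum replicate 2 stood apart: all 10 genes were higher there than in the other 2 libraries of its group, and each result that rests on it is given with and without it.

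The promoters of 8 of the 10 genes were held in the RefSeq table of start sites (build GRCm38.p6, the assembly of mm10), with Egr1 and Ier2 not among them. They are shown because the genes answer to signals through short elements just before the start. In the window from 250 bases before to 50 after the start, both strands, TGACG, the core of the cyclic AMP response element, occurred in 7 of these 8 promoters, all but Jun, and in 23.0% of 27025 genes. The full element TGACGTCA, which contains the core on both strands, occurred in 2 of 8 (Btg2 and Dusp1), and in 2.03% of genes. The Egr site GCGNGGGCG was found in Fosb, Nr4a1 and Btg2 (6.27% of genes), and TATAAA in Fos and, after the start, in Junb (15.7% of genes). Neither the AP-1 site TGANTCA (8.97% of genes) nor a CArG box, the site of serum response factor (1.81% of genes), was in any of the 8 windows. Only exact matches to these patterns were sought, and sites outside the windows or near Egr1 and Ier2 were not covered. Fos is printed for its TATA box and a pair of cores, Nr4a1 for its 4 cores, Btg2 and Dusp1 for the full element, and Jun as the promoter without a core. Each runs 5′ to 3′ on the strand of the gene and ends 1 base before the start, except Btg2 and Dusp1, which run from 200 to 51 bases before it. Capitals mark matches on either strand to the core and the full element, and also the TATA box of Fos and the Egr sites of Btg2 and Nr4a1.
Fos (chr12:85473640-85473889, plus strand): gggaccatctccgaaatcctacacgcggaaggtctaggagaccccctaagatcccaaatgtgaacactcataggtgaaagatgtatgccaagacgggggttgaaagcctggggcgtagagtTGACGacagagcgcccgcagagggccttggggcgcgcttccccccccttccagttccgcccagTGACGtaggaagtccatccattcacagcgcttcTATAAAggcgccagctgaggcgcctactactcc
Nr4a1 (chr15:101266596-101266845, plus strand): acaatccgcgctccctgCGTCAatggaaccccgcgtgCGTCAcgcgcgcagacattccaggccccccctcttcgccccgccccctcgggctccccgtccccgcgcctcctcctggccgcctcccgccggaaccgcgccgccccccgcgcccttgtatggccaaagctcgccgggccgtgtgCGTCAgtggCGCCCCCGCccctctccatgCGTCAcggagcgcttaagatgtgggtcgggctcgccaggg
Btg2 (chr1:134079206-134079355, minus strand): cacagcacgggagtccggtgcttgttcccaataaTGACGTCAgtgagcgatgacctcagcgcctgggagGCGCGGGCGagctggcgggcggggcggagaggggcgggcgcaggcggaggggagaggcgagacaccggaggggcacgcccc
Dusp1 (chr17:26508523-26508672, minus strand): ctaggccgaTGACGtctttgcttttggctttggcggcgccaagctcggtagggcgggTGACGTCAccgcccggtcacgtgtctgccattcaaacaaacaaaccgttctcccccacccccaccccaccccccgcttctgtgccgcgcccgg
Jun (chr4:95052223-95052472, minus strand): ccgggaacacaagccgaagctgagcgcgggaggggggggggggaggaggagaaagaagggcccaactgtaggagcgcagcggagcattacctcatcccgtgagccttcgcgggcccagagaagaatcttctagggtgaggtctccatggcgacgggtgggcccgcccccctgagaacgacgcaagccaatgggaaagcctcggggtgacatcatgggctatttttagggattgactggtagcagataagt
Of the RefSeq gene models, 9 lie at chr12:85473890-85477274 (Fos), chr7:19302696-19310118 (Fosb), chr4:95049036-95052222 (Jun), chr8:84976909-84978748 (Junb), chr1:191170296-191183333 (Atf3), chr15:101253902-101274795 (Nr4a1), chr8:84661331-84662852 (Ier2), chr17:26505591-26508472 (Dusp1) and chr1:134074865-134079155 (Btg2). The Nr4a1 window lies inside the longest model of that gene, before one of its inner start sites.

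The first question was in which tissues each gene was high. Each gene had its own order of tissues, as the map of group means shows: Egr1 was highest in cortex, Jun, Ier2 and Dusp1 in lung, Nr4a1 in heart, and the other 5 in rectum. Without Scx-/- rectum replicate 2, only Fosb and Junb of those 5 kept rectum as the tissue with the highest mean, while Fos was highest in intestine, Atf3 in vascular samples and Btg2 in spleen. In whole organs, fewer cells of a type and less RNA per cell cannot be told apart.

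**Figure D1:**
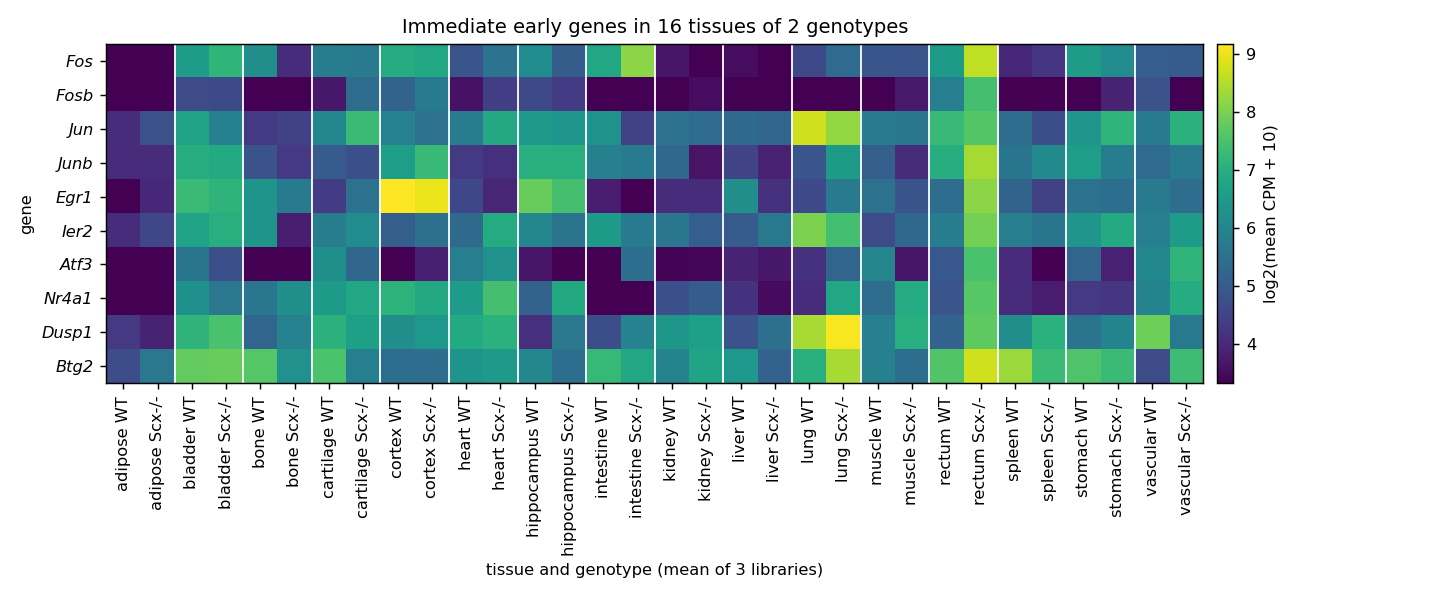
Mean level of the 10 immediate early genes in the 32 groups of tissue and genotype, as log2(mean CPM + 10), with 3 libraries in each group. Egr1 is bright in both cortex groups, Jun and Dusp1 are bright in lung, and both adipose columns are dark in nearly every row.

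Among the AP-1 genes, Fos was counted in 65 of the 96 libraries. In intestine it ranged over 31.4 to 333 CPM (median 219, n = 6), with 238, 31.4 and 42.6 in the WT and 200.2, 333 and 302 in the Scx-/- libraries. These Scx-/- libraries held 54955, 30014 and 26500 counts, of which 11, 10 and 8 were of Fos. WT replicates 2 and 3 had 4 Fos counts each. In cortex Fos was 74.2 to 143 CPM (median 102, n = 6) and in rectum 0 to 749.6 CPM (median 141, n = 6), the highest of them Scx-/- replicate 2. A rectum library was at 0, and the cortex libraries lay within a narrow range. Against the equally weighted mean of the other 15 tissues, tested by limma on log2(CPM + 10), a scale that understates the change of low genes, Fos was higher in intestine by 2.31 ± 0.50 (SE, adjusted p = 0.000225, limma), in rectum by 2.04 ± 0.50 (SE, adjusted p = 0.00175, limma) and in cortex by 1.88 ± 0.50 (SE, adjusted p = 0.00155, limma). The difference in rectum was 1.71 ± 0.55 without Scx-/- replicate 2 (adjusted p = 0.0286). Fos was lower than the others in adipose, liver, kidney and spleen. It was at 0 in all 6 adipose libraries, where 3 counts would have made 1.86 CPM.

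Fosb, which encodes a Fos protein known for its build-up in stimulated neurons, was counted in 31 libraries and was at 0 in all 6 libraries of adipose, bone, intestine, liver, lung and spleen. The limit that 3 counts set there was 1.02 CPM in liver and 4.77 CPM in bone. In cortex it was found in all 6 libraries, at 41.6, 34.2 and 3.24 CPM in the WT and 40.7, 41.8 and 49.5 CPM in the Scx-/- group, and in rectum in 4 of 6, at 0, 0 and 141 and 38.1, 429 and 25.5 CPM. The cortex libraries were alike except for 1 low WT library, and the rectum libraries ran from nothing to the highest value of the series. Both tissues were higher than the others by limma, by 1.57 ± 0.32 (SE, adjusted p = 3.78e-05, limma) in cortex and by 1.79 ± 0.32 (SE, adjusted p = 1.09e-05, limma) in rectum, where the difference was 1.23 ± 0.33 without Scx-/- replicate 2 (adjusted p = 0.00595).

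Jun, the most widely paired AP-1 subunit, was counted in 86 libraries and was highest in lung. Its lung libraries held 371, 171 and 733 CPM in WT and 198, 325 and 345 CPM in Scx-/- mice, and every one of them lay above all libraries of 12 other tissues. Only rectum, cartilage and stomach reached into this range. By edgeR, lung exceeded the mean of the other tissues by 2.44 ± 0.35 (SE, adjusted p = 1.1e-09, edgeR) on the log2 scale, rectum by 1.31 ± 0.41 (SE, adjusted p = 0.0188, edgeR) and stomach by 1.02 ± 0.38 (SE, adjusted p = 0.0426, edgeR), and spleen lay below it, at a log2 difference of -1.41 ± 0.58 (SE, adjusted p = 0.0468, edgeR). In rectum the difference was 1.17 ± 0.45 without Scx-/- replicate 2 (adjusted p = 0.0872). Of 8 alternative settings, the call was kept in 8 for lung, 6 for rectum, 5 for stomach and 2 for spleen.

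Junb, an AP-1 subunit that opposes Jun on many targets, was highest in rectum, hippocampus, cortex and bladder. The values were 189, 60.1 and 100.5 CPM in WT and 254, 542 and 182 CPM in Scx-/- rectum, 86.2 to 172 CPM (median 111, n = 6) in hippocampus, 74.2 to 168 CPM (median 119, n = 6) in cortex and 54.9 to 198 CPM (median 97.4, n = 6) in bladder. These 4 tissues overlapped one another. By edgeR they exceeded the mean of the others by 2.40 ± 0.42 (SE, adjusted p = 1.11e-06, edgeR), 1.75 ± 0.41 (SE, adjusted p = 0.000233, edgeR), 2.03 ± 0.34 (SE, adjusted p = 5.63e-08, edgeR) and 1.70 ± 0.37 (SE, adjusted p = 9.72e-05, edgeR), and rectum by 2.08 ± 0.46 without Scx-/- replicate 2 (adjusted p = 0.000350). Stomach was higher too, by 1.18 ± 0.41 (SE, adjusted p = 0.0274, edgeR), and Junb was lower in kidney and liver.

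Atf3, the stress-induced member of this group, was counted in 46 libraries. Its vascular libraries held 81.7, 64.7 and 22.9 CPM in WT and 321, 77.8 and 0 CPM in Scx-/- mice, and its heart libraries 68.2, 0 and 71.0 and 41.1, 81.3 and 80.8 CPM. In heart it was found in 5 of 6 libraries, and the one at 0 was the shallowest of the series. Vascular samples exceeded the others by 1.82 ± 0.46 (SE, adjusted p = 0.00367, limma) and heart by 1.59 ± 0.46 (SE, adjusted p = 0.0114, limma). In cortex, where Fos, Fosb and Junb were high, Atf3 was at 0 in 4 of 6 libraries, with a mean of 2.15 ± 4.76 CPM (SD, n = 6).

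Egr1, the zinc finger factor that is used as a mark of recently active neurons, was highest in cortex. The cortex libraries held 555, 569 and 584 CPM in WT and 582, 443 and 494 CPM in Scx-/- mice, a mean of 538 ± 57.1 CPM (SD, n = 6). Hippocampus came next by mean at 190.0 ± 113 CPM (SD, n = 6), with all of its libraries below all of cortex. Over the 10 genes there were 150 pairs of neighbours in the order of the tissues, and this was the 1 pair whose ranges over 6 libraries did not overlap. The ranges of the other 149 overlapped, for which 1 low or high library is enough, and neighbours were not tested against each other. A single library outside cortex reached the cortex range and exceeded it, Scx-/- rectum replicate 2 at 698 CPM. By limma cortex was higher than the others by 4.08 ± 0.48 (SE, adjusted p = 7.3e-12, limma), hippocampus by 2.36 ± 0.48 (SE, adjusted p = 3.09e-05, limma) and bladder by 1.43 ± 0.48 (SE, adjusted p = 0.0252, limma). The bladder libraries ran from 1.70 to 314 CPM, both ends within WT. At the other end, intestine had Egr1 in 1 of 6 libraries and adipose in 2.

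**Figure D2:**
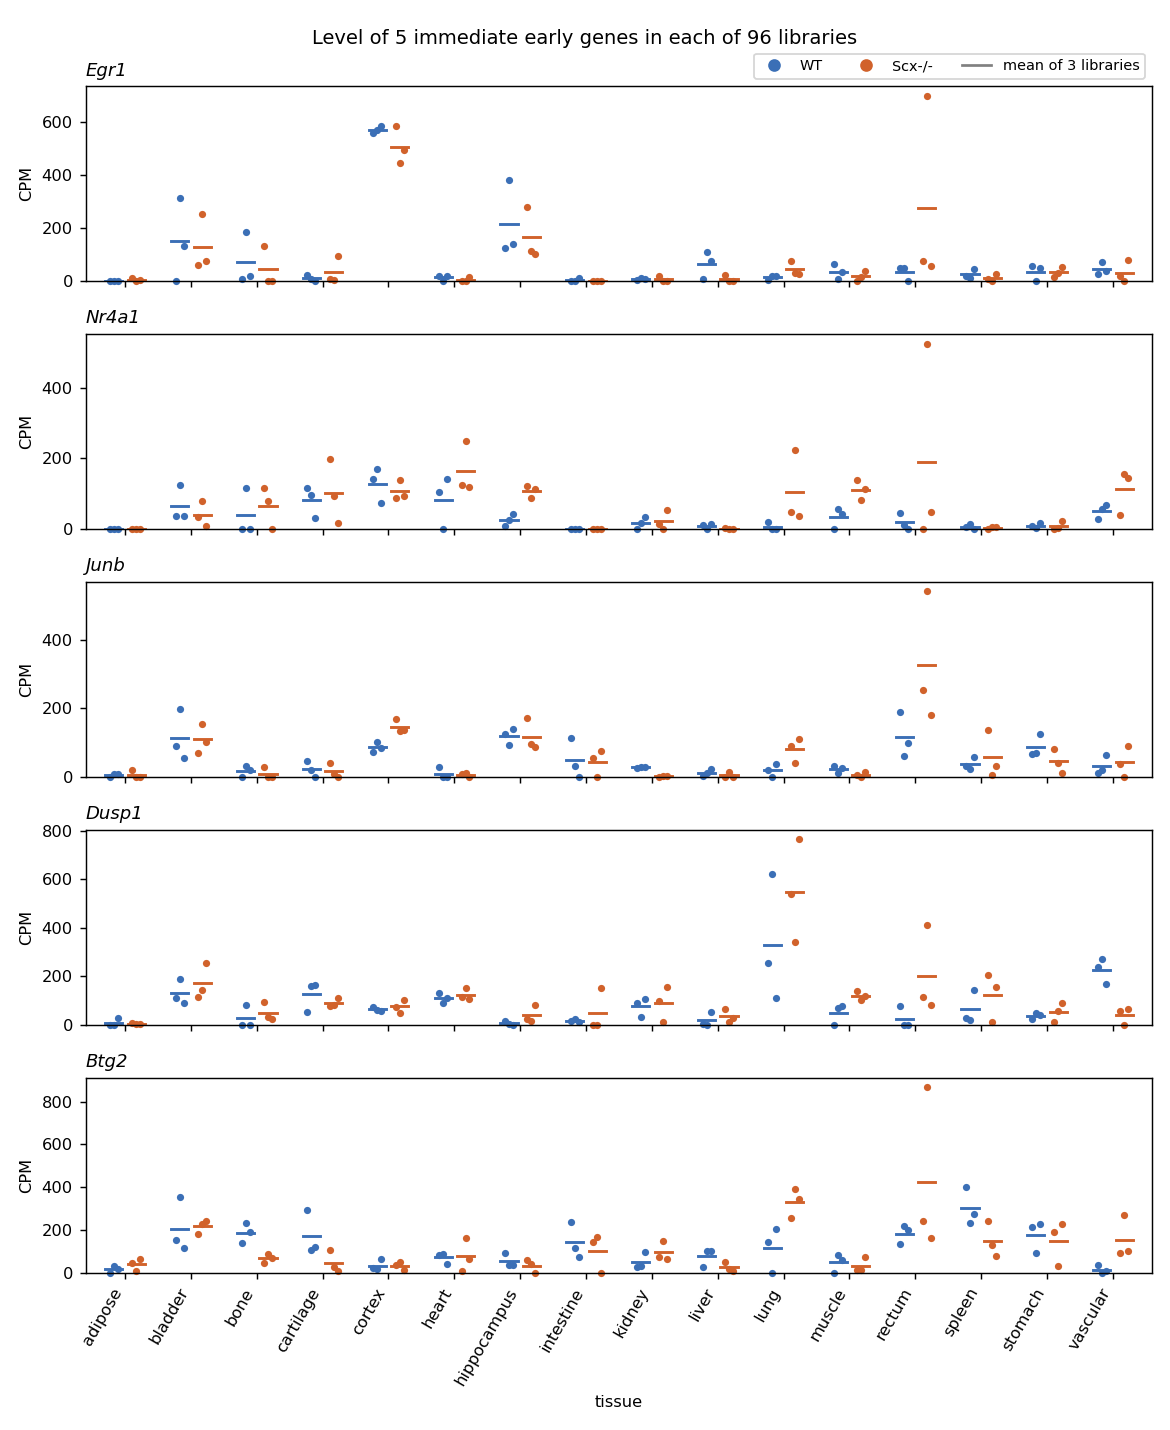
Level of Egr1, Nr4a1, Junb, Dusp1 and Btg2 in each library (points, CPM on a linear axis) by tissue and genotype, with the mean of 3 libraries as a line. The cortex points of Egr1 lie together between 443 and 584 CPM, the lung points of Dusp1 spread from 113 to 764 CPM, and in rectum 1 Scx-/- point lies far above the rest in all 5 panels.

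Nr4a1, the nuclear receptor also called Nur77, had no single leading tissue. Heart, cortex, rectum, cartilage and vascular samples had means between 82.5 and 123 CPM and overlapped. The rectum mean was 105 CPM, and 21.2 CPM without Scx-/- replicate 2. In cortex the values were 142, 169.6 and 74.6 CPM in WT and 86.8, 140.1 and 92.4 CPM in Scx-/- mice. Cortex exceeded the others by 1.91 ± 0.47 (SE, adjusted p = 0.000572, limma) and heart by 1.53 ± 0.47 (SE, adjusted p = 0.0174, limma), whereas spleen, liver, adipose and intestine lay below. It was at 0 in all 6 adipose and all 6 intestine libraries, with limits of 1.86 and 4.17 CPM. In intestine Fos was near its highest level while Egr1 and Nr4a1 were at or near 0, and in cortex all 3 were high.

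Ier2 was highest in lung, at 96.5, 299.6 and 357 CPM in WT and 33.1, 180.2 and 270.3 CPM in Scx-/- mice, and lung was the only tissue in which it passed the test by edgeR (1.55 ± 0.43 SE, adjusted p = 0.00315, edgeR). Its lung range overlapped that of 14 other tissues.

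Of the genes that limit the response, Dusp1 was also highest in lung. Its lung libraries held 254, 621 and 113 CPM in WT and 537, 343 and 764 CPM in Scx-/- mice, above all libraries of 6 other tissues, and lung exceeded the mean of the others by 2.45 ± 0.35 (SE, adjusted p = 6.79e-10, edgeR). Bladder (1.13 ± 0.35 SE, adjusted p = 0.00901, edgeR), heart (1.10 ± 0.40 SE, adjusted p = 0.0351, edgeR) and muscle (1.25 ± 0.37 SE, adjusted p = 0.00428, edgeR) were higher as well, and hippocampus (-2.31 ± 0.67 SE, adjusted p = 0.00322, edgeR) and adipose (-2.21 ± 0.82 SE, adjusted p = 0.0435, edgeR) lower. The hippocampus held 0 to 82.3 CPM (median 16.2, n = 6) of Dusp1 beside its high Egr1 and Junb, and cortex 50.9 to 104 CPM (median 67.7, n = 6). The direct difference between hippocampus and cortex was not tested.

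Btg2 was low in the brain, at means of 33.2 CPM in cortex and 44.4 CPM in hippocampus. Its means in adipose (28.0 CPM) and muscle (40.8 CPM) were as low. It was found in 90 of 96 libraries, with its highest means in rectum, spleen, lung and bladder and low values in cortex, where it was 20.5, 15.6 and 64.9 CPM in WT and 35.4, 49.1 and 13.8 CPM in Scx-/- mice. Spleen held 402, 235 and 274 CPM in WT and 244, 129 and 77.1 CPM in Scx-/- mice, all above the cortex libraries. By edgeR spleen was higher than the others by 1.30 ± 0.34 (SE, adjusted p = 0.000962, edgeR), rectum by 1.27 ± 0.37 (SE, adjusted p = 0.0116, edgeR), bladder by 1.13 ± 0.32 (SE, adjusted p = 0.00411, edgeR) and stomach by 1.04 ± 0.33 (SE, adjusted p = 0.0144, edgeR), and cortex and hippocampus were lower, at log2 differences of -1.43 ± 0.41 (SE, adjusted p = 0.00202, edgeR) and -1.29 ± 0.46 (SE, adjusted p = 0.0215, edgeR). In rectum the difference was 0.69 ± 0.43 without Scx-/- replicate 2 (adjusted p = 0.359).

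In all, a gene was called in a tissue when its adjusted p was under 0.05 and its log2 difference above 1 in size. The edgeR contrast has no finite value where a group holds no count, so it was used for Jun, Junb, Ier2, Dusp1 and Btg2, which had a count in all 32 groups. Of their 80 gene and tissue pairs 24 were called (17 higher, 7 lower), where 18.7% of all such pairs in the table were called. By limma, chosen after the data were seen to cover all 10 genes, 49 of 160 pairs were called (24 higher, 25 lower) against 16.6% of all pairs. Cortex had 5 of 10 genes higher (background 23.8%), rectum 5 (9.95%) and lung 3 (10.4%), and adipose had 8 of 10 lower (33.6%). Bladder had 4 of 10 higher and liver 4 of 10 lower. Over all 13459 genes, 1913 were called in bladder and 2439 in liver, both directions together. Without Scx-/- rectum replicate 2, the rectum calls fell from 5 to 4 by limma and from 3 to 1, that of Junb, by edgeR. Of the 24 edgeR calls 7 were not made by limma: Jun, Junb and Btg2 in stomach (0.78, 0.76 and 0.86), Dusp1 in heart (1.06) and muscle (0.22), Btg2 in hippocampus (-0.99) and Junb in kidney (-0.96), with adjusted p from 0.0861 to 0.778. The adipose-labelled libraries are those with the pancreatic counts given above, and the part of that content in their low values was not tested.

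The summed level of the 10 genes put these patterns on 1 scale, on which the most counted genes weigh most. The 6 cortex libraries summed to 1015 to 1206 CPM, the lung libraries to 979.6 to 1929 CPM and the adipose libraries to 21.4 to 129.8 CPM. The mean of cortex was 1095 ± 65.8 CPM (SD, n = 6). Without Egr1 the mean sums were 557 CPM in cortex and 1373 CPM in lung. In rectum the sums were 933, 577 and 643 CPM in WT, and 1054.5, 5364 and 1267 CPM in Scx-/- mice.

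**Figure D3:**
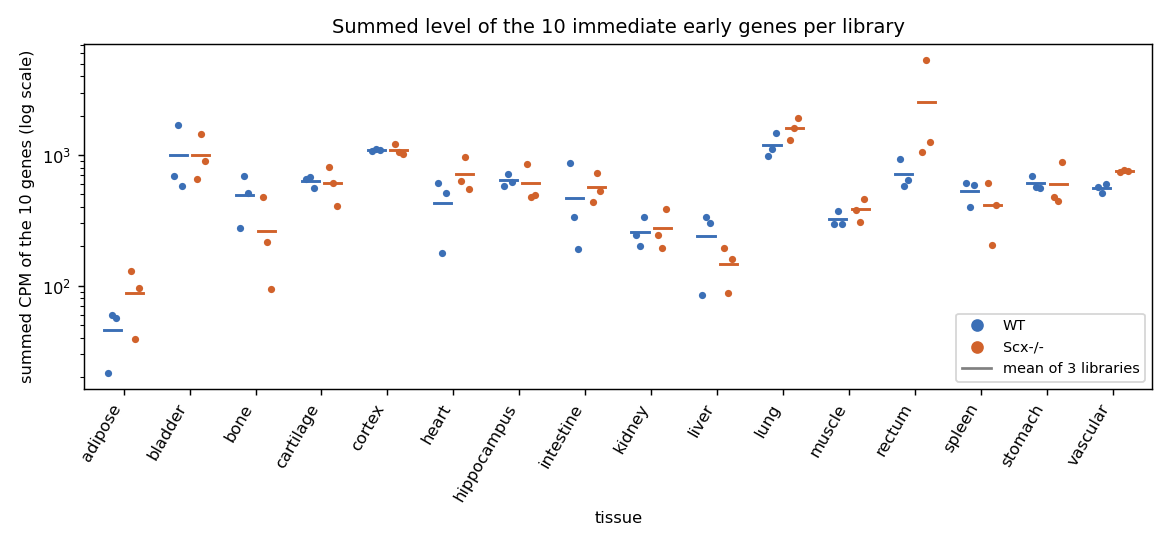
Summed CPM of the 10 immediate early genes in each library (points, log scale) by tissue and genotype, with the mean of 3 libraries as a line. The 6 cortex points lie within 1015 to 1206 CPM, the adipose points lie at 21.4 to 129.8 CPM, and 1 Scx-/- rectum library lies highest at 5364 CPM.

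The second question, which the study put to the tissues other than the vascular samples, left out there as contaminated, was whether the level differed between Scx-/- and WT mice. Of the 160 gene and tissue pairs, 149 had a count and were tested by edgeR, and 11 were at 0 in all 6 libraries. At the thresholds of the study, an unadjusted p under 0.05 with a fold change above 2, 12 pairs passed (8.05%), 8 higher and 4 lower in Scx-/- mice, where 3.71% of all tested gene and tissue pairs passed. No pair of the 10 genes passed at an adjusted p under 0.05 by edgeR (lowest adjusted p = 0.521), nor by DESeq2 where it gave an adjusted p, and 13 by edgeR had an unadjusted p under 0.05. Over all genes 0.0914% of pairs passed the adjusted threshold. Of the 12, 6 lay in rectum and rested on replicate 2, and without that library 6 of the 149 pairs (4.03%) passed. In 21 pairs (14.1% of those tested) the 3 libraries of one genotype all lay above the 3 of the other, 13 with Scx-/- higher and 8 with WT higher, against 7.96% over all genes.

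**Figure D4:**
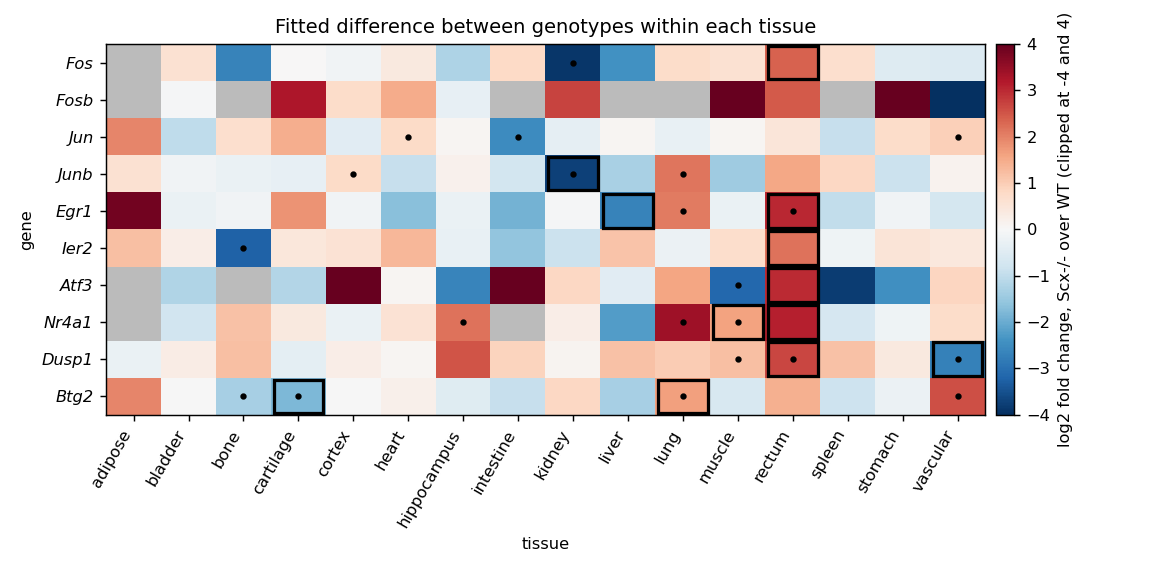
Fitted log2 fold change (Scx-/- over WT, edgeR) of each immediate early gene in each tissue, clipped at -4 and 4, with grey for pairs at 0 in all 6 libraries. Black frames mark the 12 pairs at the thresholds of the study, 6 of them in the rectum column, and dots mark the 21 pairs whose libraries did not overlap. None had an adjusted p under 0.05.

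In rectum all 10 genes had a higher fitted mean in Scx-/- mice, at a median log2 fold change of 2.41 beside 0.45 over all genes. Without Scx-/- replicate 2 it was 8 of 10, at a median of 0.61 beside 0.23, with Fosb at -0.17 and Atf3 at -0.05. With all libraries 6 passed the thresholds of the study, where 3.59% of all genes passed in this direction. Fos was 73.6, 168 and 0 CPM in WT and 114, 749.6 and 293 CPM in Scx-/- libraries (log2 fold change 2.36 ± 0.86 SE, unadjusted p = 0.00634, adjusted p = 0.622, edgeR). Egr1 was 50.6, 48.1 and 0 CPM in WT and 76.2, 698 and 57.3 CPM in Scx-/- libraries (log2 fold change 3.03 ± 1.07 SE, unadjusted p = 0.00459, adjusted p = 0.521, edgeR), and Nr4a1 46.0, 12.0 and 0 CPM and 0, 524 and 47.8 CPM (log2 fold change 3.11 ± 1.29 SE, unadjusted p = 0.0158, adjusted p = 0.706, edgeR). In each case Scx-/- replicate 2 was the highest library. Atf3 (2.98 ± 1.35), Dusp1 (2.67 ± 1.21) and Ier2 (2.17 ± 1.05) were the other 3 (adjusted p = 0.706 each, edgeR). Only Egr1 and Dusp1 had all Scx-/- libraries above all WT libraries in rectum, as 5.88% of all genes did. Dusp1 was 78.2, 0 and 0 CPM in WT and 114, 412 and 82.8 CPM in Scx-/- mice. The rectum libraries held 217467, 83150 and 49764 counts in WT and 78710, 230777 and 314033 counts in Scx-/- mice. A single count thus made 12.0 and 20.1 CPM in WT replicates 2 and 3 and 12.7 CPM in Scx-/- replicate 1.

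Scx-/- rectum replicate 2 held the highest value of all 96 libraries for 8 of the 10 genes, all but Jun and Dusp1. Its Atf3 level was 24.9 times and its Nr4a1 level 24.8 times the mean of the other 5 rectum libraries, while Jun was 1.78 times that mean. Among 7820 genes with at least 20 CPM in rectum, the median log2 difference of this library from the other 5 was 0.30, and over the 10 genes it was 3.25. It exceeded 2 for 8 of the 10 genes and for 8.43% of the 7820. Without this library none of the 6 calls held: the log2 fold changes were 1.43 (Fos), 0.89 (Egr1), 0.37 (Nr4a1), 1.58 (Dusp1), 1.56 (Ier2) and -0.05 (Atf3), with adjusted p = 0.859 or higher (edgeR). The Dusp1 call was also lost without WT replicate 2 (log2 fold change 2.12) or WT replicate 3 (2.21), and the Ier2 call without WT replicate 2 (1.61), WT replicate 3 (1.69) or Scx-/- replicate 3 (2.24).

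The rectum groups also differed in marker genes of other cells, 6 of 23 lists having no overlap. The 5 skeletal muscle genes summed to 212 to 3858 CPM in WT and 6149 to 8983 CPM in Scx-/- libraries, the bladder epithelium genes (Upk2 at 0) to 23.0 to 221 and 455 to 5120.1 CPM, and the neutrophil genes (Ngp and Camp at 0) to 0 and 73.7 to 2173 CPM. The rectum list was lower in Scx-/- libraries, at 88.9 to 1551 CPM against 1734 to 3499.7 CPM, as were the liver (Serpina1c and Fgb at 0) and cortex (Gfap at 0) lists. In replicate 2 of the Scx-/- group itself the rectum list was at 649.98 CPM, between the other 2 libraries of its group, and the muscle (8983 CPM), adipose (693 CPM) and brown fat (351 CPM) lists were above those of the other 5 rectum libraries, while the stomach (212 CPM), cortex (78.0 CPM) and hippocampus (73.7 CPM) lists were below them. Replicate 1 of the Scx-/- group stood apart in other lists. Its smooth muscle list was at 1334 CPM, beside 11652 to 16701 CPM in the other rectum libraries. It also held the lowest rectum list (88.9 CPM) and the highest bladder list (5120.1 CPM). The part of these differences in the 10 genes was not tested.

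**Figure D5:**
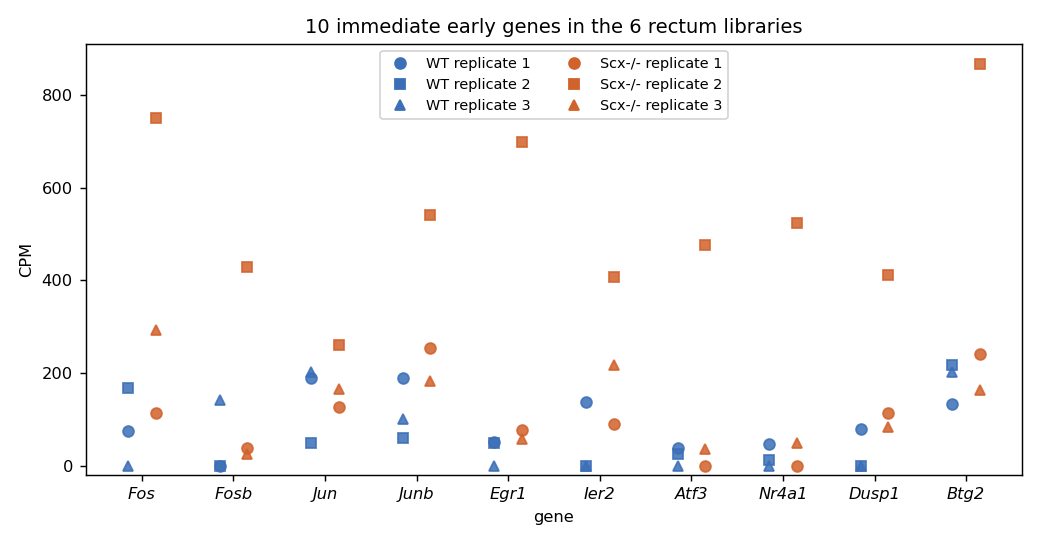
Level (CPM) of the 10 immediate early genes in the 6 rectum libraries, with colour for genotype and marker shape for replicate. Scx-/- replicate 2 is the highest point for every gene, far above the other 5 for Nr4a1, Atf3 and Egr1 and near them for Jun.

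Outside rectum 6 pairs passed the thresholds of the study, each in a different tissue. In vascular samples Dusp1 was 237, 272 and 169 CPM in WT and 58.9, 0 and 67.1 CPM in Scx-/- libraries, with no overlap (log2 fold change -2.70 ± 0.99 SE, unadjusted p = 0.00609, adjusted p = 0.672, edgeR). It stayed past the thresholds in 5 of 6 fits without 1 library, failing without WT replicate 1 (-2.51). The vascular groups also differed in depth (154625 to 354795 counts in WT and 77132 to 152689 in Scx-/- libraries) and in marker lists, brown fat at 7153 to 13226 CPM in WT and 3655 to 6163 CPM in Scx-/- libraries (Cpt1b at 0) and endothelial genes at 336 to 490.0 CPM in WT and 145 to 298 CPM in Scx-/- libraries, and their part in the result was not tested. Btg2 and Jun had the other direction. Btg2 was 36.6, 0 and 9.16 CPM in WT and 91.7, 272 and 101 CPM in Scx-/- vascular libraries, and Jun 73.3, 0 and 59.5 and 105, 104 and 168 CPM, both without overlap and both short of the thresholds (unadjusted p = 0.0883 and 0.475, edgeR).

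In lung, 7 of 9 tested genes had a positive fold change, and the median over the 9 was 1.57 against 0.18 over all lung genes. Without WT replicate 1 it was again 7 of 9, at a median of 2.08 against 1.31 over all genes, and without Scx-/- replicate 2 it was 6 of 9. Btg2 passed the thresholds, at 146, 0 and 207 CPM in WT and 256, 391 and 345 CPM in Scx-/- libraries (log2 fold change 1.64 ± 0.82 SE, unadjusted p = 0.0457, adjusted p = 0.741, edgeR). Nr4a1, at 20.5, 0 and 0 and 49.6, 224 and 37.3 CPM, Junb, at 20.5, 0 and 37.6 and 90.9, 39.6 and 112 CPM, and Egr1, at 2.92, 21.4 and 18.8 and 74.4, 30.8 and 28.0 CPM, were likewise separated by genotype, with unadjusted p from 0.0601 to 0.347. WT replicates 2 and 3 of lung held 46732 and 53197 counts, so that a single count made 21.4 and 18.8 CPM there. The lung marker list (Sftpb and Ager at 0) was higher in Scx-/- libraries (83405.5 to 98611 CPM against 60858 to 74856 CPM) and the neutrophil list lower (270.3 to 400.1 CPM against 415 to 1284 CPM), and their part in the result was not tested. The Btg2 call failed without WT replicate 2 (1.12) and without any 1 Scx-/- library (1.38 to 1.78).

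In muscle Nr4a1 was 0, 56.2 and 42.2 CPM in WT and 140.0, 82.8 and 112 CPM in Scx-/- libraries (log2 fold change 1.62 ± 0.82 SE, unadjusted p = 0.0478, adjusted p = 0.771, edgeR). Dusp1 moved beside it, from 0, 67.7 and 78.0 CPM to 139, 101 and 120.0 CPM, without overlap but short of the thresholds (unadjusted p = 0.121), and Atf3 was on the other side, at 132, 12.6 and 16.9 CPM in WT and 3.56, 2.59 and 2.31 CPM in Scx-/- libraries (unadjusted p = 0.0539). WT muscle replicate 1, which gave both zeros and the highest Atf3 value, had 30409 counts. The Nr4a1 call held in 1 of 6 fits without 1 library, the one without that replicate (1.33), and failed in the others (1.41 to 2.01). The bone list (Bglap, Ibsp and Sp7 at 0) was at 4016 to 6935 CPM in WT and 1316 to 2685 CPM in Scx-/- muscle, and its part was not tested.

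The 3 remaining pairs were lower in Scx-/- mice. In kidney Junb was 27.6, 29.5 and 29.8 CPM in WT and 0, 3.07 and 4.12 CPM in Scx-/- libraries, 74 counts against 2 (log2 fold change -3.72 ± 1.76 SE, unadjusted p = 0.0341, adjusted p = 0.791, edgeR). The kidney libraries held 672218 to 1015500 counts in WT and 242429 to 447350 in Scx-/- mice. The WT libraries were close to one another here and every Scx-/- library lay below them, yet the call failed without any 1 WT library (-3.65 to -3.70) or without Scx-/- replicate 1 (-3.07). In cartilage Btg2 was 294, 109 and 119.7 CPM in WT and 108, 29.2 and 7.25 CPM in Scx-/- libraries (log2 fold change -1.81 ± 0.85 SE, unadjusted p = 0.0343, adjusted p = 0.769, edgeR). It was -3.22 without Scx-/- replicate 1, the library with Scx counts, and the call failed without WT replicate 1 (-1.14), Scx-/- replicate 2 (-1.56) or Scx-/- replicate 3 (-1.29). In liver Egr1 was 8.31, 110.1 and 74.1 CPM in WT and 22.1, 0 and 1.72 CPM in Scx-/- libraries, which overlapped (log2 fold change -2.66 ± 1.16 SE, unadjusted p = 0.0216, adjusted p = 0.746, edgeR), with totals of 245271 to 481409 and 580110 to 768443 counts, and the call failed without WT replicate 2 or 3 (-2.06 and -2.56) or without Scx-/- replicate 2 or 3 (-2.11 and -2.21). Among the marker lists reported for kidney, those lower in Scx-/- mice without overlap were kidney genes at 23709.5 to 33179 CPM in WT and 18146 to 20472 CPM in Scx-/- libraries and endothelial genes at 297 to 364 CPM in WT and 189.7 to 255 CPM in Scx-/- libraries. In cartilage the heart list (Myh6, Myl7 and Nppa at 0) was at 207 to 351 CPM in WT and 28.9 to 90.6 CPM in Scx-/- libraries and the pancreatic list at 250.2 to 702 CPM in WT and 1437 to 1956 CPM in Scx-/- libraries. In liver the stomach list was at 254 to 595 CPM in WT and 160.3 to 234 CPM in Scx-/- libraries and the macrophage list at 226 to 293 CPM in WT and 150.0 to 219 CPM in Scx-/- libraries. The part of these totals and lists in the 3 results was not tested.

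In the brain tissues, where Egr1 and Junb were high, none of the 10 genes passed the thresholds between genotypes. Junb was 74.2, 103 and 86.0 CPM in WT and 168, 135 and 137 CPM in Scx-/- cortex, without overlap, and had a log2 fold change of 0.78 ± 0.35 (SE), below the 2-fold limit of the study (unadjusted p = 0.0277, adjusted p = 0.830, edgeR). In hippocampus Nr4a1 was 8.43, 27.1 and 42.0 CPM in WT and 122, 87.9 and 114 CPM in Scx-/- libraries, also without overlap (log2 fold change 2.18 ± 1.23 SE, unadjusted p = 0.0772, adjusted p = 0.762, edgeR). The hippocampus totals did not overlap either, at 118567 to 184695 counts in WT and 255264 to 511781 counts in Scx-/- libraries.

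Averaged over the 16 tissues, no gene of the set differed between genotypes at an adjusted p under 0.05. The contrast of group means covered the 5 genes with a count in every group, with 1 of them at an unadjusted p under 0.05: Dusp1, with a log2 fold change of 0.58 ± 0.27 (SE, adjusted p = 0.437, edgeR). Of 2537 genes so tested, 242 had an unadjusted p under 0.05, and 0.788% passed at an adjusted p under 0.05. An additive model of tissue and genotype, added after the data were seen, gave all 10 genes a value. Nr4a1 (0.69 ± 0.27, adjusted p = 0.302), Fosb (1.07 ± 0.46, adjusted p = 0.398) and Dusp1 (0.48 ± 0.22, adjusted p = 0.426) had an unadjusted p under 0.05, as did 1251 of 13459 genes. At an adjusted p under 0.05, 0.52% of all genes passed. Without Scx-/- rectum replicate 2, 1 of the 10 genes had an unadjusted p under 0.05 in this model. With 1 value per genotype and replicate number, the lowest adjusted p was 0.818 (Nr4a1, limma).

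Whether the difference between genotypes itself varied from tissue to tissue was tested over all 16 tissues at once. No gene of the set passed (0.0669% of all genes did), and 2 had an unadjusted p under 0.05, Btg2 (unadjusted p = 0.00855, adjusted p = 0.631, edgeR) and Dusp1 (unadjusted p = 0.0476, adjusted p = 0.766, edgeR). Without Scx-/- rectum replicate 2 these unadjusted p were 0.0193 and 0.148 (adjusted p = 0.750 and 0.934, edgeR). Of all 13459 genes tested with that library, 863 had an unadjusted p under 0.05.

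The third question was whether the 10 genes rose and fell together among libraries of the same tissue and genotype. For each library the deviation of log2(CPM + 10) from the mean of its group was taken, and the 96 deviations were correlated between genes. The points share a library total, and 3 libraries of a group are bound by their common mean, so these values are descriptions. The median correlation over the 45 pairs was 0.15, with 38 pairs above 0, where the median over all pairs of 8194 genes with at least 20 CPM was 0.02. The highest was between Egr1 and Dusp1 (r = 0.34), then Egr1 and Nr4a1 (r = 0.34) and Junb and Dusp1 (r = 0.32). Dusp1 and Btg2 had the lowest (r = -0.16). The median was 0.10 without Scx-/- rectum replicate 2, and the pair that moved most with it was Fosb and Atf3, from 0.02 to -0.19. These correlations are weak, in counts that are sparse. Over the 32 group means, by contrast, the median was 0.33, with Junb and Egr1 (r = 0.75) and Jun and Ier2 (r = 0.72) the most alike. Without that library these were 0.28, 0.72 and 0.72.

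In bladder, WT replicate 2 was the highest of its group for 9 of the 10 genes, with a sum of 1708 CPM beside 689 and 583 CPM in the other WT libraries. It is named because it came next after Scx-/- rectum replicate 2 in this count. The share of all genes that were highest in it is not given here.

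Genes outside the set whose pattern was most like it were taken among those with at least 20 CPM on average. Over the 32 group means, the mean of the 10 genes was closest to Sparcl1 (r = 0.79), Zfp651 (r = 0.78), Efnb2 (r = 0.76), Ankrd11 (r = 0.75) and Ankrd50 (r = 0.75). Without Scx-/- rectum replicate 2 these 5 places went to Sparcl1 (r = 0.83), Rab12 (r = 0.79), Ankrd11 (r = 0.79), Zfp651 (r = 0.79) and Dync1li2 (r = 0.78). Over the 96 deviations within groups it was closest to Filip1l (r = 0.50), Ctgf (r = 0.50), Herpud2 (r = 0.49), Trdn (r = 0.49) and Man1a (r = 0.48). None of these 5 was among the closest 5 without Scx-/- rectum replicate 2, which were Raph1 (r = 0.53), Csdc2 (r = 0.51), Ddx19a (r = 0.49), Gtpbp1 (r = 0.48) and Arid2 (r = 0.48).

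The wider pathway was followed with 3 lists. Of 36 other early response genes, Jund and Dusp5 were listed at 0 in all 96 libraries. In 482 tested gene and tissue pairs of this list 15 passed the thresholds of the study with Scx-/- higher and 6 lower (4.36%, beside 3.71% over all genes), and none had an adjusted p under 0.05 (lowest 0.164, edgeR). In rectum 25 of 33 tested genes had a positive fold change, with a median log2 fold change of 0.99 beside 0.45 over all genes, and 2 passed. Without Scx-/- replicate 2 it was 20 of 33, at a median of 0.27 beside 0.23, and 0 passed. Of these 33 genes 19 (57.6%) were highest in Scx-/- replicate 2, as were 18.4% of all 14292 genes with a count in rectum. The 3 members with the highest mean CPM were Sgk1, a salt-regulating kinase (457 CPM on average, highest in intestine at 1641 ± 840.4 CPM, SD, n = 6), Cebpb, a factor of fat and inflammatory genes (229.8 CPM, highest in vascular samples at 925 ± 421 CPM), and Klf2, a factor of endothelial cells (198 CPM, highest in lung at 927 ± 182 CPM). In Scx-/- rectum replicate 2 they stood at 758, 308 and 273 CPM, beside 734, 279.5 and 198 CPM in the highest other rectum library.

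Of 16 upstream factors and kinases, Mapk14 was listed at 0 in all libraries. The list passed the thresholds in 6 pairs with Scx-/- higher and 4 lower of 231 tested (4.33%, beside 3.71% over all genes, lowest adjusted p = 0.565, edgeR), none of these in rectum, where 3 of the 15 tested genes were highest in Scx-/- replicate 2. Map2k2 and Mapk3, kinases of the cascade that activates the early genes, had means of 199.8 and 89.0 CPM. Of 6 heat shock genes, which rise with heat, stress and handling of tissue, Hspa1a and Hspa1b were listed at 0 in all libraries. The other 4 passed in 0 pairs with Scx-/- higher and in 5 lower of 64 tested (7.81%, beside 3.71% over all genes, lowest adjusted p = 0.439, edgeR), and none of them was highest in Scx-/- rectum replicate 2. Without that library 6 pairs passed, as Hspa8 then passed in rectum (adjusted p = 0.00238, edgeR, against 0.929 with it). Hspa8, a chaperone of unstressed cells as well, was at 423, 84.2 and 643 CPM in WT rectum and at 0, 611 and 0 CPM in Scx-/- rectum. Hspa8, Hsph1 and Hspb1 had the highest means (332, 108 and 92.9 CPM).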

How the data were processed

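Whole organs were lysed in trizol and total RNA was made into MuSeq libraries with Nextera XT and read on an Illumina instrument. The authors mapped the reads to mm10 with Bowtie2 at default settings and counted them per gene with HTSeq, and deposited these as raw counts, without normalization. Tool versions, the gene annotation, strandedness and the use of molecular identifiers are not named in the sources read, so PCR copies may be counted and limits cover counting error only.

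All tests were fitted on the whole table and adjusted by the Benjamini-Hochberg method over all genes tested. Genotypes were compared within each tissue with the quasi-likelihood test of edgeR 4.0.16 (TMM scaling, genes at 0 in all 6 libraries removed). Tissue contrasts, the average and the interaction came from 1 fit over 32 groups after filterByExpr, and limma 3.58.1 was used on log2(CPM + 10). DESeq2 1.42.0, the tool of the study, was an alternative. R 4.3.3 and Python 3.11.15 were used, and the scripts were tested on simulated data. The 10 genes and all lists were chosen with earlier results of these data known. The named genes were the 10, the 5 closest in pattern on each measure, and in each pathway list the 3 with the highest mean CPM and any with an adjusted p under 0.05. A gene of the upstream list and some marker values are not reported here. Marker lists held 5 genes each, of which Cnmd was not analysed here.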

Additional observations from a re-analysis of the deposited data

Results flagged for a closer look

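For 4 of the 10 genes the libraries of the genotypes were separated in opposite directions in different tissues, and the difference between those tissues was not tested pair by pair. The same held for 26.8% of genes with at least 20 CPM on average and for 12% of genes with any count. Jun was higher in Scx-/- heart (log2 fold change 0.75) and vascular samples (0.96) and lower in intestine (-2.53), where the median over all genes was -1.63, the Scx-/- libraries held 26500 to 54955 counts against 93927 to 386890 in WT, and Jun had 2 counts against 52. Junb was higher in Scx-/- cortex (0.78) and lung (2.13) and lower in kidney (-3.72). Dusp1 was higher in Scx-/- muscle (1.20) and rectum (2.67, or 1.58 without Scx-/- replicate 2) and lower in vascular samples (-2.70). Btg2 was higher in Scx-/- lung (1.64) and vascular samples (2.58) and lower in bone (-1.34) and cartilage (-1.81). The test over all tissues at once, given above, passed for none of them.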

How the results depend on the processing

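The 12 genotype calls within tissues became 5 with the replicate number as a block, 7 of 81 tested pairs after filterByExpr, 0 by adjusted p, 6 without Scx-/- rectum replicate 2, and 2 to 15 when 1 replicate of a genotype was left out of every tissue. Over all genes the calls in rectum also fell with the block, from 714 to 235 of 14292, and were 160 of 3284 after filterByExpr. Shares over all genes and all tissues at these settings are not given here. The log2 fold change of Atf3 in rectum turned to -0.0502 without Scx-/- replicate 2 and ran up to 3.86 without another library. The 24 tissue calls by edgeR became 15 with RLE size factors, 8 in WT and 15 in Scx-/- libraries alone, and 3 to 9 with 1 replicate number left out, where only 16 to 48 pairs could be tested. The 49 calls by limma on log2(CPM + 10) became 17 in WT and 29 in Scx-/- libraries alone, and 31 to 36 with 1 replicate number left out. The median within-group correlation of 0.15 was 0.15 with a pseudocount of 1, 0.21 with 50, 0.16 without libraries under 50000 counts, 0.0831 in WT and 0.21 in Scx-/- libraries alone, 0.10 without Scx-/- rectum replicate 2, 0.11 without all rectum libraries, and 0.0852 to 0.223 with 1 replicate number left out. The replicate numbers did not pair the samples: in 0 of 16 tissues did all 3 pairs correlate above 0.1. With the block, 23 tissue calls and 0 calls of the average and of the interaction were made. The average and the interaction gave 0 calls in all settings run. Of the values of named pairs, 91 genotype values kept their call, 49 lost it and 1 reversed, and 147 tissue values kept theirs and 64 lost it. Depth limits the low genes most, since 3 counts made 267 CPM in the shallowest library. The settings without Scx-/- rectum replicate 2, the additive model and limma for tissues were chosen after the data were seen.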
